A study of Mus musculus with 4 samples.

Results

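The 2 control libraries of a RAD21 chromatin immunoprecipitation sequencing (ChIP-seq) study in mouse cells were compared with each other, without any RAD21 read. They were picked by their labels and are 2 of the 4 libraries of the series. The ESC IgG library came from R1/E embryonic stem cells (ESCs) at differentiation day 0, and the EB IgG library from R1/E-derived embryoid bodies (EBs), aggregates in which stem cells differentiate, at day 12. Their antibody label names a goat IgG isotype control, while their descriptions speak of input DNA. The study's methods describe immunoprecipitation of the stem cell chromatin with a control IgG antibody, and its results speak of IgG ChIP-seq data. Why the descriptions differ was not resolved here. The titles of both libraries name the Rad21-GFP line. According to the study's methods, these cells carried a bacterial artificial chromosome (BAC) with the Rad21 gene fused to a GFP-containing tag, and resistant clones had been sorted for GFP fluorescence, so the controls hold the transgene too. Each side is 1 library. The differences below therefore have no replicate check, no test was made, and all intervals are 95% intervals for counting error only.

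A control library collects the fixed and sheared chromatin that sticks to beads and to an unspecific antibody. It is known to follow the amount of DNA at each position, how easily chromatin breaks and is recovered, the base composition that amplification and sequencing favour, and how many copies of a sequence the reference genome holds. GC-rich DNA is known to be hard to amplify, and active promoters in CpG islands are known to be open and easily sheared. Peak callers use such a library as the background of the specific antibody, so a pattern of the control enters every site called against it.

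The files hold 1 line per aligned 35-base read on the mm9 mouse assembly. The ESC IgG library had 13002597 reads, 12602155 of them on the 19 autosomes (96.9%), and the EB IgG library had 7067703, with 6929293 on autosomes (98.0%). No position and strand held more than 1 read, so the files carry no repeated reads. An autosomal kilobase held 5.26 ESC IgG and 2.89 EB IgG reads on average, and a 100 kb bin a median of 529 and 297. Counts were scaled to the autosomal reads of the library. A ratio below is ESC IgG over EB IgG, so that values above 1 are higher in ESC IgG.

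Gene starts differ widely in base composition, and 4 starts that come back below show the range. The 200 bases before each start are given 5′ to 3′ on the gene's strand, with the CpG dinucleotides in capitals. Rad21 (chr15:51823307-51823506, minus strand) and the TATA-binding protein gene Tbp (chr17:15636652-15636851, plus strand) have CpG-rich starts. The pluripotency genes Pou5f1 (chr17:35642782-35642981, plus strand) and Nanog (chr6:122657307-122657506, plus strand) have CpG-poor starts.
Rad21: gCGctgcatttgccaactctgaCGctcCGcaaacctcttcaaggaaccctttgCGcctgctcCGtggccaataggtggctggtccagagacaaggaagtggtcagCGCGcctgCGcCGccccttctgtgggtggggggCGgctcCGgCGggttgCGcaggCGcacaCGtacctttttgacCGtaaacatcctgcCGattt
Tbp: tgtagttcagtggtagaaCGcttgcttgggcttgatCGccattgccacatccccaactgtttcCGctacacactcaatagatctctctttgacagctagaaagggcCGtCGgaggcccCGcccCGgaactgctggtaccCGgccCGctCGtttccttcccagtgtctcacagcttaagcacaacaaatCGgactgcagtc
Pou5f1: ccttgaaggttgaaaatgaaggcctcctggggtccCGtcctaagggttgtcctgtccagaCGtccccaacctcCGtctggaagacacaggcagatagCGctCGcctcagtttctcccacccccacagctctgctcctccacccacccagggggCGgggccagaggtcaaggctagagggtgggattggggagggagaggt
Nanog: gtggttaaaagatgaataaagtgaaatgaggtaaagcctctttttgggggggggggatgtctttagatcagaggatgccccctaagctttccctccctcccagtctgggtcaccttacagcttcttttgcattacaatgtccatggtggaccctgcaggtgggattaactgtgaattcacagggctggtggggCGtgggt

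Rad21 and Pou5f1 have the same GC content over these bases, 62.5%, but 17 CpG against 6. Tbp holds 55.5% GC and 11 CpG, and Nanog 50.5% GC and 1 CpG. GC content and CpG content were therefore treated as separate properties of a start.

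Base composition separated the libraries more than any class of genes. The GC content of the 200 bases around each read averaged 41.99% in ESC IgG and 40.1% in EB IgG, against 41.9% over all usable autosomal positions. ESC IgG was densest at 43% GC, with 1.17 times its mean, and EB IgG at 33% GC, with 1.44 times its mean. Where less than 35% of the bases were G or C, the ratio was 0.669 (0.668 to 0.671), and where 60% or more were, it was 2.10 (2.07 to 2.14). The ratio climbed through every class between these, with 1.04 at 40 to 44% GC and 1.56 at 50 to 54% GC. Both libraries were thin in the most GC-rich DNA, at 0.344 of the mean in ESC IgG and 0.164 in EB IgG. Every ratio below called GC-adjusted was divided by the ratio that the GC content of its positions alone gives.

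**Figure D1:**
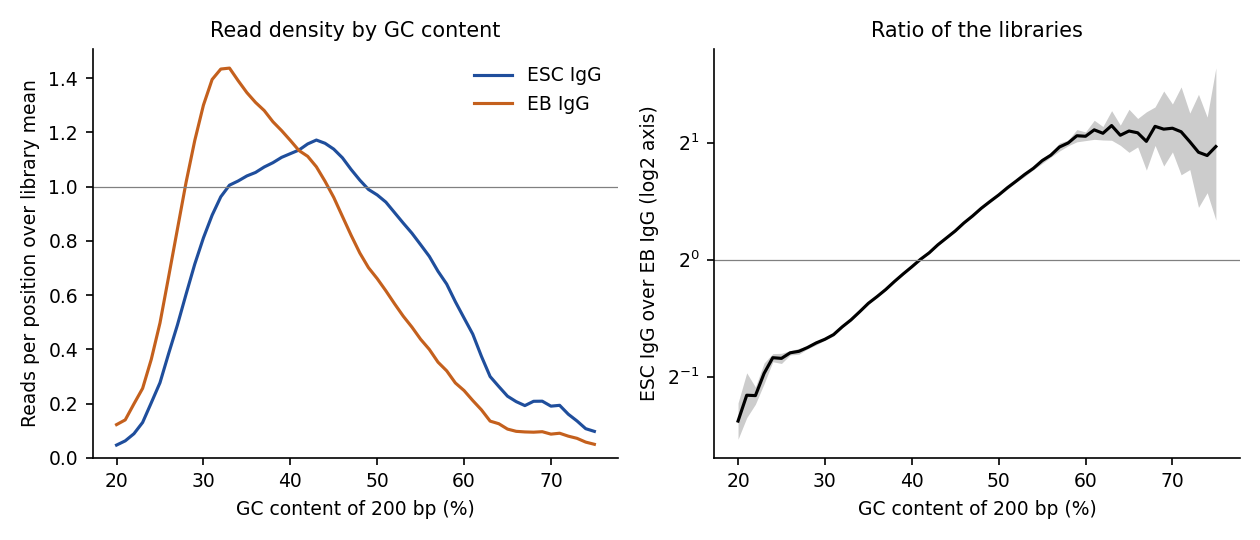
Left, reads per autosomal position over the library mean (y axis) against the GC content of the surrounding 200 bases in percent (x axis), for ESC IgG and EB IgG. Right, the ratio ESC IgG over EB IgG on a log2 axis with its 95% counting interval as a grey band. The ratio runs from 0.669 in the class under 35% GC to 2.10 in the class of 60% GC or more.

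Gene starts, the 1 kb on either side of the first base of a protein-coding gene, were covered less than the average position in both libraries. The 19878 merged start windows held 0.832 of the mean read density in ESC IgG and 0.772 in EB IgG. Their unadjusted ratio was 1.08 (1.07 to 1.09). Their GC content alone gives a ratio of 1.18, so after GC adjustment the order turned and starts were lower in ESC IgG, at 0.916 (0.909 to 0.924). Set against the reads that their GC content predicts, starts held 1.02 times the expected reads in ESC IgG (1.02 to 1.03) and 1.11 times in EB IgG (1.11 to 1.12).

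The excess of EB IgG lay at starts of the high and intermediate CpG classes. Starts were classed by the 500 bp on either side as high (CpG observed over expected of 0.6 or more and 55% GC or more), low (under 0.4) or intermediate. The 8427 high-CpG starts had a GC-adjusted ratio of 0.805 (0.794 to 0.816), with 1.04 times the expected reads in ESC IgG and 1.29 times in EB IgG. The 4512 intermediate starts had 0.840 (0.827 to 0.854), with 1.07 times the expected reads in ESC IgG and 1.27 times in EB IgG, and the 8479 low-CpG starts 1.02 (1.01 to 1.03). At low-CpG starts both libraries were close to the reads expected from GC content, at 0.989 and 0.967. The intervals of the high and low classes do not overlap, in the ratio or in the EB IgG level. Windows within a class were not merged here, so reads in overlapping windows count more than once and these intervals are too narrow.

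The shape around the start was sharp. In the 100 bases just before high-CpG starts, ESC IgG held 1547 reads, or 0.349 of its mean density, and EB IgG held 759, or 0.311. Against the reads expected from GC content these were 1.21 times in ESC IgG (1.15 to 1.27) and 2.06 times in EB IgG (1.92 to 2.21), with a GC-adjusted ratio of 0.587 (0.538 to 0.641). So both libraries dipped in raw reads at CpG islands, and EB IgG dipped less than its own dependence on GC predicts. From 200 to 299 bases after the start, the raw density reached its lowest point of 0.226 in ESC IgG and 0.149 in EB IgG. Around low-CpG starts no such peak over the expected reads was seen, for example 0.984 in ESC IgG and 0.969 in EB IgG from 100 to 199 bases after the start.

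The size of this excess depended on which positions can be read at all. A 35-base read is placed with certainty only where its sequence occurs once, which held for 85.7% of autosomal positions, 97.2% at high-CpG starts and 83.3% at low-CpG starts. With the expectation built on such positions alone, high-CpG starts held 0.915 of the expected reads in ESC IgG (0.908 to 0.922) and 1.14 times in EB IgG (1.13 to 1.15). The 100 bases before them then held 1.04 times in ESC IgG (0.989 to 1.09) and 1.78 times in EB IgG (1.65 to 1.91). Intermediate starts held 0.982 of the expected reads in ESC IgG and 1.17 times in EB IgG, so the EB IgG level there was above that of high-CpG starts. The gap between the libraries stayed, while at high-CpG starts ESC IgG fell to or under the expected reads.

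**Figure D2:**
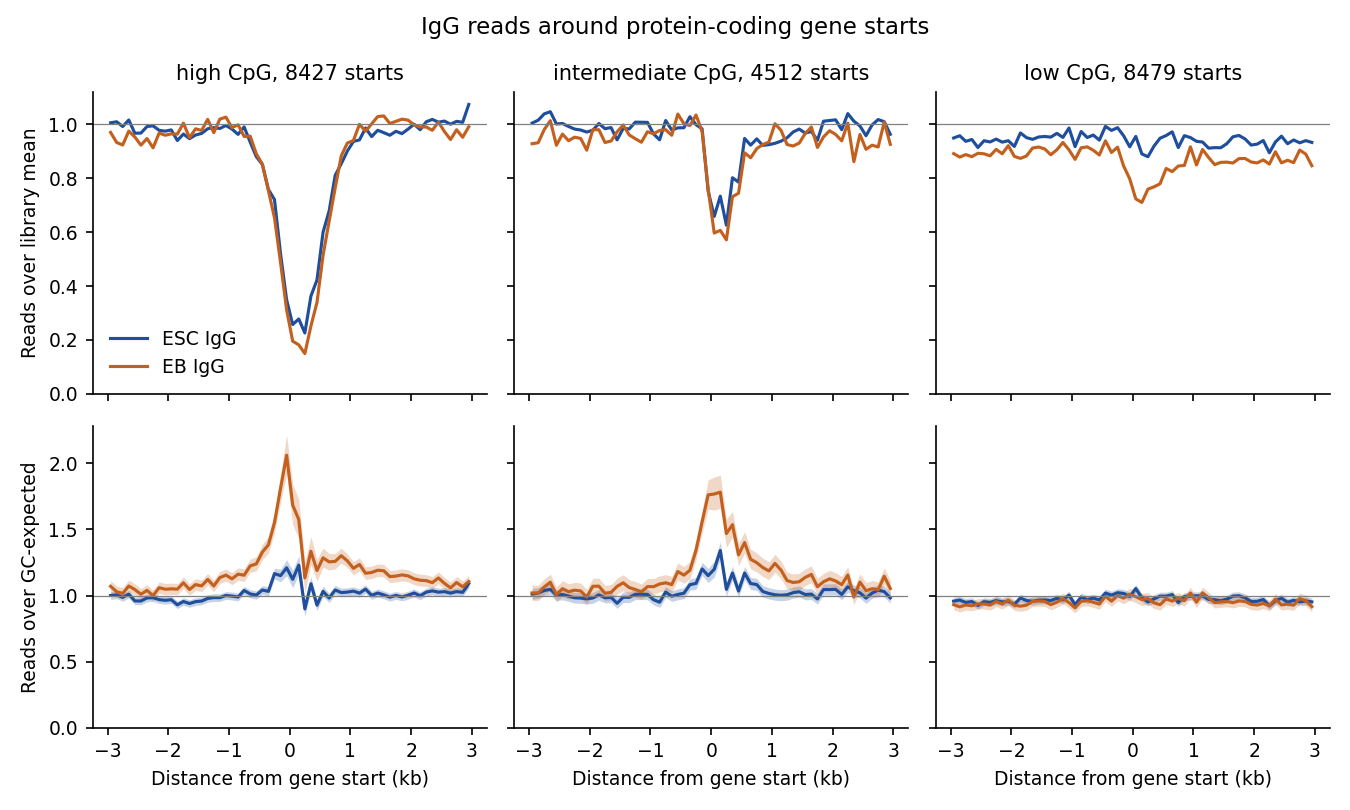
IgG reads in 100 bp steps (x axis, distance from the gene start in kb, transcription to the right) at high-, intermediate- and low-CpG starts. The upper row shows read density over the library mean and the lower row reads over those expected from GC content, with 95% counting intervals as bands. In the 100 bases before high-CpG starts, EB IgG reaches 2.06 times the expected reads and ESC IgG 1.21 times.

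Away from the starts the classes of genic and intergenic DNA differed by only a few percent. Gene bodies, from 1 kb after the start to 1 kb before the end, filled 909 Mb and had a GC-adjusted ratio of 1.013 (1.012 to 1.015). Gene ends had 1.02 (1.02 to 1.03), and gene deserts, 619 stretches of 500 kb or more without a protein-coding gene, had 0.965 (0.963 to 0.967). Scaled to the autosomes other than 6, 8 and 11, the ratio in deserts turned to 1.001. Before GC adjustment the same classes ran from 0.883 in deserts to 1.12 at ends, and deserts hold 39.1% GC and ends 44.99%. Bodies held 1.08 and 1.06 times the expected reads in ESC IgG and EB IgG, and ends 1.07 and 1.04 times. Deserts held 0.963 and 0.997 times. On positions with a unique 35-mer, deserts moved to 0.998 and 1.02, and bodies to 1.02 and 1.004.

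Chromosome 11 stood apart in both libraries, and chromosomes 6 and 8 in ESC IgG only. The level of a chromosome is its reads at positions with a unique 35-mer, over those expected from GC content, divided by the median autosome of that library. In 16 of the 19 autosomes the level lay between 0.962 and 1.02 in ESC IgG and between 0.941 and 1.04 in EB IgG. Chromosome 11 was high in both libraries, at 1.38 in ESC IgG (860490 reads) and 1.24 in EB IgG (413610 reads). Chromosome 8 was at 1.252 in ESC IgG and 0.996 in EB IgG. Chromosome 6 was at 1.23 in ESC IgG and 0.985 in EB IgG. The counting interval of each of these levels is within 0.5% of it. Counting error is thus small beside the distance of the raised levels from the other autosomes.

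The rise in ESC IgG ran along chromosomes 8 and 11 and along chromosome 6 outside 1 interval, and that in EB IgG along chromosome 11. On chromosome 6, 14 segments of 10 Mb were between 1.18 and 1.399 in ESC IgG and between 0.934 and 1.08 in EB IgG, and the segment chr6:70000001-80000000 was at 0.558 and 0.520. All 13 segments of 10 Mb on chromosome 8 were between 1.15 and 1.38 in ESC IgG and between 0.927 and 1.10 in EB IgG. The 12 segments of chromosome 11 were between 1.28 and 1.62 in ESC IgG and between 1.17 and 1.46 in EB IgG. The 204 segments of the other 16 autosomes stayed between 0.812 and 1.14 in ESC IgG and between 0.813 and 1.13 in EB IgG. As the GC-adjusted ratio of the libraries, scaled to all autosomal reads, this gave 1.21 for chromosome 6, 1.22 for chromosome 8 and 1.08 for chromosome 11, against 0.944 to 1.001 for the others. Chromosome 11 is GC-rich, at 43.8% of its bases, and its unadjusted ratio was 1.14. Mouse ESC lines are known to gain whole chromosomes in culture, chromosome 8 in particular. Karyotypes were not measured in these data, and the part that chromosome number plays in these levels was not tested.

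**Figure D3:**
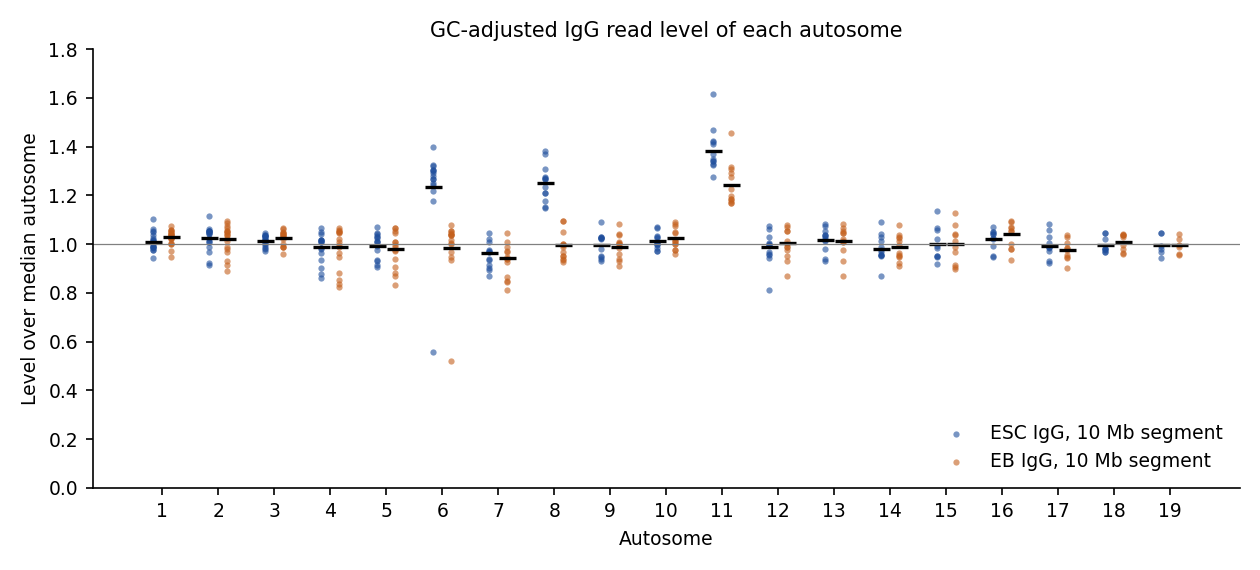
Level of each autosome (x axis) over the median autosome of the same library (y axis), GC-adjusted and at unique 35-mers. Points are 10 Mb segments and black bars whole chromosomes. Chromosome 11 is raised in both libraries (1.38 and 1.24), chromosomes 6 and 8 in ESC IgG (1.23 and 1.252, against 0.985 and 0.996 in EB IgG), and 1 segment of chromosome 6 is low in both.

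An interval of chromosome 6 held far fewer reads than its surroundings in both libraries. It spanned 9.28 Mb (chr6:70270001-79550000, edges placed to 10 kb), and was looked at after its value was seen. Its level was 0.511 in ESC IgG (0.504 to 0.517, 23462 reads) and 0.486 in EB IgG (0.478 to 0.495, 13580 reads). The rest of chromosome 6 was at 1.28 in ESC IgG and 1.02 in EB IgG, so the interval held 0.398 and 0.477 of it. The change was abrupt. The megabase before the interval was at 1.30 and 1.04, the first megabase inside at 0.511 and 0.486, the last megabase inside at 0.486 and 0.478, and the megabase after it at 1.31 and 1.003.

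The excess of ESC IgG over EB IgG on chromosome 6 was much smaller inside this interval. Inside, the GC-adjusted ratio of the libraries on unique positions was 1.01 (0.994 to 1.04), against 1.21 (1.21 to 1.22) on the rest of the chromosome. Both ratios are scaled to all autosomal reads. Over the median autosome, ESC IgG stayed slightly higher inside, at 0.511 (0.504 to 0.517) against 0.486 (0.478 to 0.495) in EB IgG. The interval overlaps 56 protein-coding genes. Ctnna2, which encodes the neuronal alpha-catenin of cell adhesion, held 3197 and 2038 reads in its body, 0.533 and 0.565 of the GC-expected reads. Tcf7l1, a repressor of the Wnt pathway that limits the pluripotency network, held 474 and 212 reads, 0.566 and 0.578 of the expected. Smyd1, a methyltransferase of heart and skeletal muscle, held 317 and 150 reads, 0.557 and 0.513 of the expected. Eif2ak3, the PERK kinase of the unfolded protein response, held 169 and 90 reads, 0.523 and 0.549 of the expected. These 4 genes were chosen after their values were seen. Over the 44 genes with a body, the median was 0.562 of the expected reads in ESC IgG and 0.524 in EB IgG, and the highest 0.846 and 0.812. The interval of the ratio left out 1 for 3 of them, Ctnna2 at 0.943 (0.891 to 0.997), Rnf103 at 0.727 (0.532 to 0.9955) and Rpia at 1.72 (1.06 to 2.90), the last with 77 and 22 reads.

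**Figure D4:**
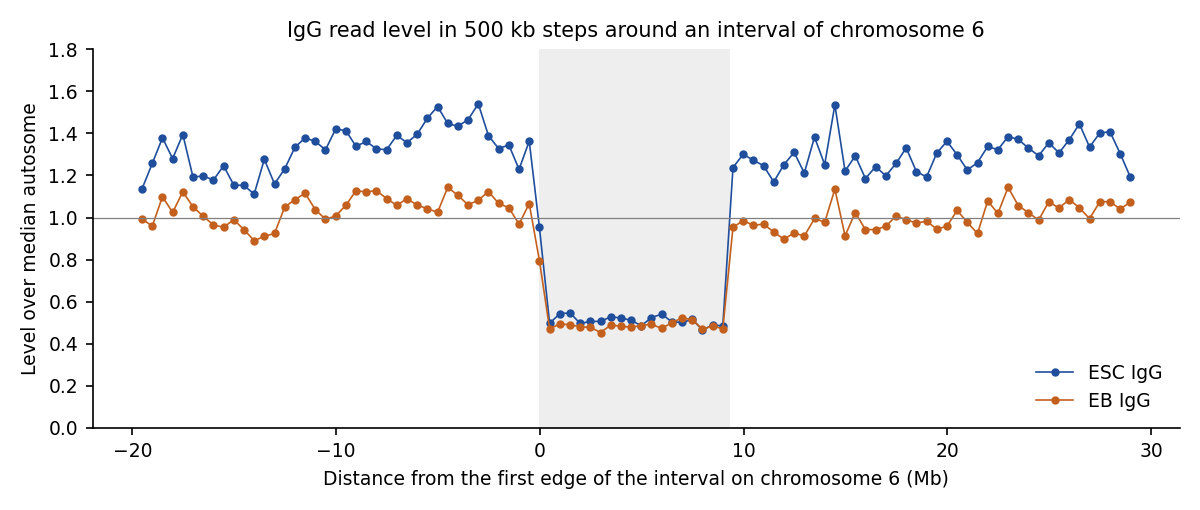
Level in 500 kb steps (y axis, over the median autosome) against the distance in Mb from the first edge of the low interval of chromosome 6 (x axis), with the interval shaded. Inside the interval both libraries sit near 0.5 (0.511 in ESC IgG and 0.486 in EB IgG over the interval), while outside ESC IgG runs above EB IgG (1.28 against 1.02).

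A search for further intervals of this kind found 1 other. A running median over 9 bins was taken along each chromosome, over 23190 bins of 100 kb in all. Runs of at least 1 Mb were sought where it stayed more than 25% under or over the chromosome's own median. Single bins within a run can therefore lie inside these limits. The 2 runs found were both low in both libraries, and none was high or was seen in 1 library alone. The second run, chr4:111700001-113700000, covers part of the Skint genes, a family of immunoglobulin-like membrane proteins of skin and thymus, at a level of 0.238 in ESC IgG (2002 reads) and 0.273 in EB IgG (1563 reads).

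Within that run some genes lacked reads and others did not. Skint3 held 1 read in ESC IgG and 0 in EB IgG, against 343.8 and 223.6 expected from unique positions and GC content. Skint4 held 2 and 2 reads against 458.1 and 299.6 expected, and Skint9 held 3 and 1 against 215.0 and 141.0. Skint2 held 155 and 96 reads against 172.9 and 116.6 expected, and Skint10 held 238 and 148 against 317.3 and 207.4, so both were mostly covered. Skint1, at the edge and mostly outside the run, held 134 and 85 reads against 128.4 and 84.2 expected. Skint6 and Skint5 lay between these and the empty genes, with 0.103 and 0.346 of the expected reads in ESC IgG and 0.144 and 0.427 in EB IgG.

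Smaller stretches also held almost no reads over both libraries together. In 445872 bins of 5 kb with at least 20 expected reads, 95 stretches of 10 kb or more held at most 10% of the expected reads over both libraries. The rule pools the libraries, so a stretch empty in only 1 of them could not enter. The stretches added up to 2075 kb, with 149 ESC IgG reads (1.62% of the expected) and 96 EB IgG reads (1.69%). At the Skint genes, 21 of these stretches covered 710 kb. Cyp2b13, a cytochrome P450 gene, held 2 and 1 reads against 126.8 and 68.5 expected, while its relative Cyp2b10 held 154 and 62 against 162.7 and 78.0. Trim12a, of a family of antiviral proteins, held 0 reads in both libraries against 67.2 and 37.7 expected, and Trim5 held 0 against 58.9 and 33.9. A stretch of 55 kb at Nlrp1b, an inflammasome sensor, held 14 and 2 reads against 281.0 and 143.8 expected. The reference genome is that of the C57BL/6J strain, whereas R1 cells derive from strain 129 mice, and the part of strain differences was not tested. These genes were chosen after their values were seen.

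At the scale of 100 kb, 1326 of 23804 bins were at least 25% higher in ESC IgG after GC adjustment (5.57% of the bins) and 611 at least 25% higher in EB IgG (2.57%). Scaled to the autosomes other than 6, 8 and 11, the counts became 2011 and 270. Of the 1326 bins, 1094 lay on chromosomes 6, 8 and 11, which hold 3894 of the bins. With each bin set against its own chromosome, 480 and 332 bins were past that fold. The SD of the log2 ratio over bins was 0.296 unadjusted, 0.194 after GC adjustment and 0.162 within chromosomes, against 0.135 that counting error alone gives. The bins with the most extreme ratios held almost no reads. The highest, chr5:11000001-11100000 with Gm8871, held 11 ESC IgG reads and 1 EB IgG read, and the lowest, chr7:21600001-21700000 with the pheromone receptor genes Vmn1r115 to Vmn1r118, held 1 and 3. The other 4 at the high end held 6 to 17 reads in ESC IgG and 1 or 2 in EB IgG, and the other 4 at the low end 1 to 4 and 2 to 6. Among them were bins with the vomeronasal receptor genes Vmn1r159 and Vmn1r160, the major urinary protein genes Mup14 and Mup15, and predicted genes of the Gm series. Of these 10 bins, 1 has an interval that leaves out 1, chr14:3100001-3200000 with 17 reads against 2 (1.10 to 41.5).

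Gene bodies past the fold were most frequent on chromosomes 6, 8 and 11. Of 7574 gene bodies with 200 reads or more over both libraries, 803 were at least 25% higher in ESC IgG (10.6%) and 195 in EB IgG (2.57%). On chromosomes 6, 8 and 11, 542 of 1459 bodies (37.1%) were past this fold towards ESC IgG, against 261 of 6115 (4.27%) on the other autosomes. The 5 highest were Cd4, Zc3hc1 and Lhfpl4 on chromosome 6, Kif1c on chromosome 11 and Ces1e on chromosome 8. Cd4, the co-receptor of helper T cells, held 173 and 37 reads, a GC-adjusted ratio of 2.07 (1.45 to 3.04). Kif1c, a kinesin motor, held 213 and 44 reads, a ratio of 2.00 (1.44 to 2.84), and Ces1e, a carboxylesterase, 246 and 70, a ratio of 1.89 (1.45 to 2.50). The other 2 had ratios of 1.92 and 1.88. GC content alone predicts 110.0 and 48.7 reads for Cd4, 123.9 and 61.0 for Zc3hc1, 127.4 and 56.5 for Lhfpl4 and 140.1 and 58.0 for Kif1c. For each of them this is under 200 reads over both libraries. They passed the filter only through their high ESC IgG reads, so their ratios and intervals are no support for a difference.

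None of the 5 lowest bodies was on these chromosomes. Jag1, a Notch ligand, held 134 and 95 reads, a ratio of 0.628 (0.479 to 0.826). Irs1, the adaptor of insulin signalling, held 283 and 241 reads, a ratio of 0.644 (0.540 to 0.767). Cd200, an immune-inhibitory surface protein, held 123 and 112 reads, a ratio of 0.651 (0.49998 to 0.849). Gypc, a red cell membrane protein, and Rnf26, a ubiquitin ligase, had ratios of 0.631 and 0.612. These 10 genes were taken for being at the ends of 7574, so their ratios are a description.

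Genes that define the pluripotent state gave few reads at their starts in either control. At the starts of the 14 autosomal genes of a 15-gene pluripotency list, the libraries held 99 and 40 reads in all, a GC-adjusted ratio of 1.02 (0.698 to 1.51). Nanog, a homeodomain factor of the pluripotency network, held 19 and 9 reads at its start, a ratio of 0.945 (0.407 to 2.37). Pou5f1, which encodes the factor Oct4, held 11 and 1 reads, a ratio of 3.37 (0.490 to 145). The growth factor co-receptor gene Tdgf1 held 15 and 1, a ratio of 6.89 (1.06 to 289.9), the only start of the 14 whose interval leaves out 1. The remaining starts, those of Sox2, Klf4, Esrrb, Zfp42, Dppa3, Dppa4, Prdm14, Tbx3, Lin28a, Fgf4 and Utf1, held 1 to 9 reads in ESC IgG and 0 to 5 in EB IgG. Counts of this size can show only very large differences. Over gene bodies the list held 1167 and 456 reads, a ratio of 1.12 (0.99999 to 1.245), and Esrrb, a nuclear receptor that sustains self-renewal, gave 804 and 304 of them, a ratio of 1.11 (0.973 to 1.27).

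Lineage lists gave wide intervals at starts. Of 12 genes listed each, the mesendoderm and cardiac lists had all 12 on autosomes and the neural and the blood and endothelial lists 10. At starts, the ratio was 0.922 (0.647 to 1.33) for 12 mesendoderm genes, 0.820 (0.587 to 1.16) for 12 cardiac genes, 0.777 (0.524 to 1.17) for 10 neural genes and 1.08 (0.751 to 1.59) for 10 blood and endothelial genes. All 4 intervals contain 1. In bodies the neural list was lower in ESC IgG, at 0.860 (0.802 to 0.923), with 2104 and 1258 reads. Most of these came from Ncam1, a neural adhesion molecule, with 1815 and 1080 reads and a ratio of 0.882 (0.818 to 0.952). Pax6, a regulator of eye and brain development, held 161 and 102 reads, a ratio of 0.748 (0.580 to 0.968). Ryr2, the calcium release channel of heart muscle, held 3223 and 1775 body reads, a ratio of 0.989 (0.933 to 1.05), and the heart and muscle regulator Mef2c 1069 and 676, a ratio of 1.006 (0.913 to 1.11). Runx1, a regulator of blood formation, held 1059 and 572, a ratio of 0.832 (0.751 to 0.923), and the angiopoietin receptor gene Tek 758 and 375, a ratio of 1.13 (1.001 to 1.29). The endoderm and heart regulator Gata4 held 391 and 198 reads, a ratio of 0.912 (0.767 to 1.09), and the liver regulator Hnf4a 306 and 110, a ratio of 1.19 (0.956 to 1.497). Over all 7574 bodies tested the median ratio was 1.02.

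Ribosomal protein and histone gene starts were lower in ESC IgG after GC adjustment, and olfactory receptor gene starts were higher. Starts of 78 ribosomal protein genes held 649 and 386 reads, a ratio of 0.720 (0.634 to 0.819), and 0.991 and 1.38 times the expected reads. Starts of 67 histone genes held 624 and 396 reads, a ratio of 0.771 (0.678 to 0.876). Windows within a list were not merged, so where they overlap, reads count more than once and the interval is too narrow. CpG-high starts made up 74.4% of the ribosomal list and 43.3% of the histone list, and the 8427 CpG-high starts of all genes gave 0.805. Starts of 1106 olfactory receptor genes, none of which is CpG-high, held 13582 and 7376 reads, a ratio of 1.09 (1.06 to 1.12). These were 1.21 times the expected reads in ESC IgG and 1.11 times in EB IgG. Of these starts 1097 are CpG-low, and the 8479 CpG-low starts of all genes, which include them, gave 1.02 (1.01 to 1.03). These 3 lists are the only ones of the 11 whose interval at starts leaves out 1.

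Few single members could be read. Of all 21418 starts, 3336 had 20 reads or more, and 288 of them were at least 2-fold higher in ESC IgG (8.63%) and 271 in EB IgG (8.12%). Among the 10 ribosomal protein starts that passed, 0 and 3 were past this fold, and among the 23 histone starts 0 and 3. Among 504 olfactory receptor starts 60 (11.9%) and 15 (2.98%) were past it. Rpl24, of the large ribosomal subunit, held 7 and 6 reads at its start and 246 and 137 in its body, a body ratio of 1.02 (0.825 to 1.27), and Rpl11 held 83 and 41 in its body, a ratio of 0.905 (0.616 to 1.35). The histone genes Hist1h2be and Hist1h2bc held 8 and 9, and 11 and 10 reads at their starts. The olfactory receptor genes with most reads, Olfr56 and Olfr288, had body ratios of 0.997 (0.875 to 1.14) and 1.23 (0.925 to 1.66).

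Housekeeping and cohesin genes had wide intervals at their starts. Starts of 10 housekeeping genes held 93 and 57 reads, a ratio of 0.730 (0.520 to 1.03). Tbp, whose CpG-rich start is printed above, held 7 and 13 reads there, a ratio of 0.273 (0.0922 to 0.736), whereas Sdha, of the respiratory chain, held 14 and 6, a ratio of 1.24 (0.449 to 3.95). Starts of 10 cohesin and CTCF genes, 9 of them CpG-high, held 82 and 49 reads, a ratio of 0.712 (0.494 to 1.04). Rad21, whose raised stretch is described below, gave 39 and 19 of these reads. Over bodies the cohesin and CTCF list held 6910 and 4014 reads, a ratio of 1.06 (1.02 to 1.10). Rad21 gave 821 and 474 of these reads. Without GC adjustment the ratio of the list turned to 0.947. Of the 9 bodies that passed, 2 were at least 25% higher in ESC IgG, against 10.6% of all bodies tested. Stag1, a cohesin subunit, held 2274 and 1399 reads in its body, a ratio of 1.03 (0.964 to 1.10), and the cohesin loader gene Nipbl 1019 and 658, a ratio of 0.996 (0.902 to 1.10). Starts of 40 Hox genes held 379 and 142 reads, a ratio of 1.06 (0.872 to 1.29). Hoxa3, listed under 2 overlapping gene entries, held 321 and 133 body reads in the entry with more reads, a ratio of 1.11 (0.90045 to 1.36). It lies on chromosome 6, and with each gene set against its own chromosome the Hox starts came to 0.991.

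The tagged Rad21 gene lay in the widest of the stretches that were high in both controls. RAD21 is the kleisin subunit that closes the cohesin ring around DNA, and the BAC carried its gene with flanking sequence. From chr15:51755001 to 51845000, 90 kb around Rad21 held 2672 reads in ESC IgG and 1525 in EB IgG. Over the median 5 kb bin of chromosome 15 this was 5.52 (5.31 to 5.73) in ESC IgG and 5.52 (5.25 to 5.81) in EB IgG. The Rad21 body itself held 821 and 474 reads, 5.56 and 5.61 times the chromosome median, and its start 39 and 19 reads, 5.61 and 5.30 times. The GC-adjusted ratio of the libraries over the stretch was 0.980 (0.920 to 1.04), so a difference between ESC IgG and EB IgG was not detectable at this depth.

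A second stretch of like height followed after 15 kb. From chr15:51860001 to 51930000, 70 kb with the gene Aard held 1904 and 1040 reads. On positions with a unique 35-mer and over the median 100 kb bin of chromosome 15, the first stretch was at 5.27 and 5.16 times, and the second at 5.35 and 5.02. The 15 kb between them held 34 and 29 reads, and 42.1% of its positions have a unique 35-mer. Its level on those positions was 0.965 in ESC IgG (0.668 to 1.35) and 1.51 in EB IgG (1.01 to 2.16), so it stayed low after the correction for unique positions. The edges were steep on both sides. The 200 kb before, with Eif3h and Utp23, were at 1.06 and 1.07, and the 200 kb after, with Slc30a8, at 1.20 and 1.09. Both stretches and the gap together span 175 kb. The number of transgene copies and the share of cells that carry them cannot be told apart.

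**Figure D5:**
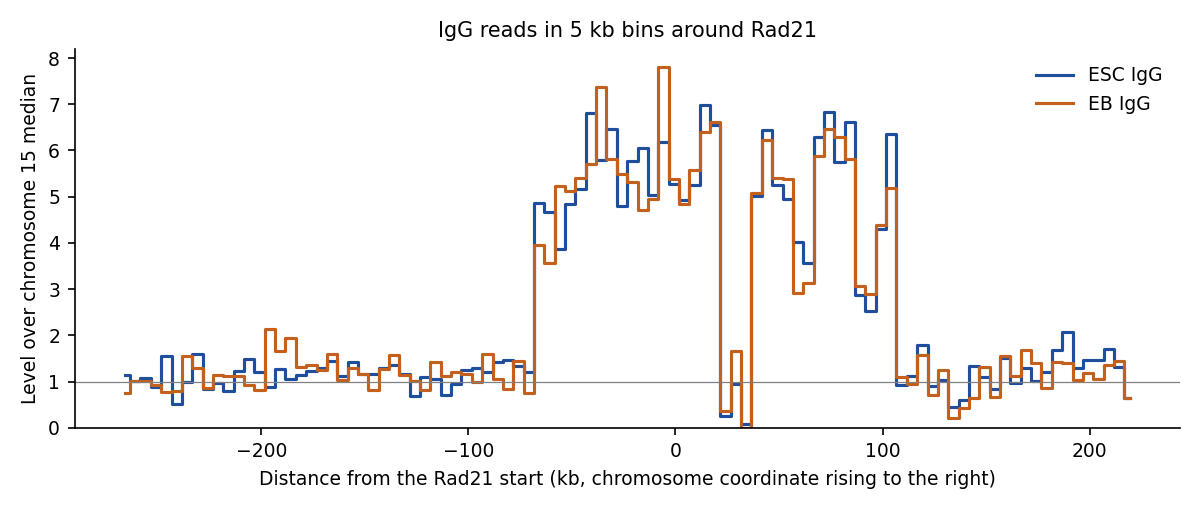
GC-adjusted reads in 5 kb bins over the median bin of chromosome 15 (y axis) against the distance in kb from the Rad21 start along the chromosome (x axis), for both IgG libraries. The 90 kb stretch around Rad21 stands at 5.52 in both libraries, is followed by a dip of 15 kb and a second stretch of 70 kb, and falls to near 1 on either side.

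Other stretches were high in both libraries without a tagged gene. In the 5 kb bins, 350 held at least 2 times the expected reads in both libraries, 18 of them in the stretch around Rad21. The 350 bins formed 193 runs, 12 of them 20 kb or longer. These counts include the stretches at Rad21 and Aard, and the runs named next lie elsewhere. At chr11:3030001-3100000, with parts of the spindle gene Sfi1 and of Drg1, 8586 and 3952 reads were 22.6 and 21.7 times the expected. At chr13:12965001-13035000, without a protein-coding gene, 1230 and 734 reads were 4.90 and 4.75 times the expected, close to the height at Rad21. These runs were chosen by length after their values were seen.

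Windows of 1 kb with pile-ups were mostly common to both libraries. Of 2393126 windows of 1 kb, 123 held 10 times the mean or more in ESC IgG and 113 in EB IgG. Of these, 103 were the same windows, 83.7% of the ESC IgG list and 91.2% of the EB IgG list. Of the 133 windows in either list, 67 lay in the stretch at Sfi1 described above, 59 of them in both lists. Elsewhere 44 windows were shared, 78.6% of 56 in ESC IgG and 81.5% of 54 in EB IgG. All pile-ups together took up 0.117% of the reads in ESC IgG and 0.118% in EB IgG. The fullest windows lay at chr2:98502001-98508000, with the predicted genes Gm10801 and Gm10800, and at chr9:35112001-35113000. The first, chr2:98502001-98503000, held 441 and 413 reads, 83.8 times the mean of ESC IgG and 142.7 times that of EB IgG. The window on chromosome 9 held 245 and 234 reads, 46.5 and 80.8 times the mean. The files keep at most 1 read per position and strand, which caps the count of a window whatever the depth. The multiples of the 2 libraries are therefore not compared here.

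The letters of 2 of these windows show that they are not alike. Below, 240 bases of the first (chr2:98502501-98502740) and of the fourth (chr9:35112501-35112740) are given on the plus strand, with capitals for bases within a 10-base word that occurs more than once in the 1 kb window.
chromosome 2 window: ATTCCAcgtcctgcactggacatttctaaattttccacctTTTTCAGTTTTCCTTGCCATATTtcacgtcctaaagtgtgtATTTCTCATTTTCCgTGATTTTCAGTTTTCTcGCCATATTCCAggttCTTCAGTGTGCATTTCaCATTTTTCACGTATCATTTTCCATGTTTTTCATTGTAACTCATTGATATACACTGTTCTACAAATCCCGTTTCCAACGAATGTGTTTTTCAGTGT
chromosome 9 window: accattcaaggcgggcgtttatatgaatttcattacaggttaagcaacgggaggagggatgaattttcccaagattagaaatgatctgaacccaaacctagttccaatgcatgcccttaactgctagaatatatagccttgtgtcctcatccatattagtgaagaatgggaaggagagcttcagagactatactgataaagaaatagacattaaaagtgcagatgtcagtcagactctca

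The chromosome 2 window is built of repeated words, which cover 48.6% of it, against a median of 4.60% in 2363 windows taken every megabase along the autosomes. Only 38.9% of its positions have a unique 35-mer. In the chromosome 9 window repeated words cover 15.1%, none of them within the 240 bases shown, and 94.2% of its positions have a unique 35-mer. A shortage of unique positions therefore goes with the first window and not with the fourth.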

How the data were processed

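The authors aligned 35-base Illumina reads of formaldehyde-fixed, sonicated chromatin to mm9 and deposited 1 line per read, so the values are counts of reads. The aligner is not given in the sources used here. Of the deposited lines, 7 could not be read in ESC IgG, all on an unplaced contig, and EB IgG breaks off on chromosome X. The 19 autosomes are complete and were used. RAD21 reads and peak files, and a column of 0 or 1 per read whose meaning the sources do not give, were not used.

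Each read was moved 100 bp towards the fragment centre and counted in 10 bp cells. The expected reads of a region were summed from the mean reads per position at each GC percent of the surrounding 200 bp, per library. Genes are those of GENCODE vM1 on the same build. Ratios have 95% intervals from the exact Clopper-Pearson interval, and levels from the exact Poisson interval. Overlapping windows were merged for the classes of starts, bodies and ends, but not within CpG classes and gene lists. With 1 library a side there is no test across samples. Positions with a unique 35-mer were found from the genome sequence. The ratio step was tested on simulated reads. Python 3.11.15, NumPy 2.4.6, pandas 2.3.3, SciPy 1.17.1, Numba 0.67.0 and matplotlib 3.10.9 were used.

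The genes named are those of the Rad21 stretch, the pluripotency list, the 2 members with most reads of the other lists, the 5 highest and lowest gene bodies and 100 kb bins, and the 5 fullest windows of 1 kb. The other genes and stretches named were chosen after their values were seen. The members and gene lists were chosen with earlier results of these data known. Alternatives tried were other GC windows, scalings, window widths, start and desert definitions, thresholds, read shifts and depth. The comparison on unique 35-mers was added after seeing the data.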

Additional observations from a re-analysis of the deposited data

Results flagged for a closer look

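Mitochondrial reads, which lie outside the autosomal comparison, were more frequent in EB IgG. The EB IgG library held 5563 mitochondrial reads and the ESC IgG library 4088. Scaled to autosomal reads this was 803 RPM in EB IgG and 324 RPM in ESC IgG, a ratio EB over ESC of 2.47 (2.38 to 2.58, exact counting interval). The files keep at most 1 read per position and strand, which caps the count on so short a chromosome, and the part of that cap was not tested. There is 1 library a side, so the difference has no replicate check.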

How the results depend on the processing

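With 1 library a side, leaving out a replicate leaves no comparison. No paired analysis was possible because each group has 1 library and the result comes from no test. The alternative without repeat-masked positions was not run, since the reference used here does not mark them.

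Without GC adjustment, the ratio turned to 1.08 at gene starts and the level at starts fell under 1, to 0.832 in ESC IgG and 0.772 in EB IgG. It was 1.05 in bodies, 1.12 at ends and 0.883 in deserts, and 3656 and 2961 bins were at least 25% higher in ESC IgG and in EB IgG. Chromosomes 6, 8 and 11 came to 1.19, 1.23 and 1.14, and chromosomes 5, 9 and 17 passed 1, at 1.002, 1.002 and 1.005. Starts of ribosomal protein, olfactory receptor and Hox genes came to 0.924, 1.01 and 1.47, bodies of cohesin and CTCF genes turned to 0.947, and the Rad21 stretch stood at 5.94 and 6.05. Scaled outside chromosomes 6, 8 and 11, which multiplies every ratio by 1.04, the ratio was 0.9504 at starts, 1.05 in bodies, 1.06 at ends and turned to 1.001 in deserts. The counts of bins became 2011 and 270. Chromosomes 6, 8 and 11 became 1.26, 1.26 and 1.12, and chromosomes 2, 4, 5, 9, 13, 15, 17 and 19 passed 1, at 1.008, 1.003, 1.02, 1.01, 1.007, 1.002, 1.02 and 1.005. Scaled to the median bin, starts, bodies, ends and deserts were at 0.927, 1.03, 1.04 and 0.977.

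With 500 bp and 2 kb either side, starts were at 0.904 and 0.932, and with all transcript starts at 0.936. Deserts of 1 Mb gave 0.957, and those without any annotated gene 0.961. On unique 35-mers, starts were at 0.908 and deserts at 0.976, and the level at starts was 0.980 in ESC IgG, under the expected reads, and 1.08 in EB IgG. With GC content over 500 bp these levels were 1.06 and 1.16. With reads not moved they were 1.03 and 1.10, and the ratios were 0.942 at starts, 1.02 in bodies, 1.04 at ends and 0.948 in deserts. With a fold of 1.5 there were 117 and 40 bins past it. With 2 kb bins the Rad21 stretch stood at 5.73 and 5.88. At 5 times the mean, 369 and 699 windows were pile-ups.

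In all, of 82 alternative values of the main results, 30 stayed within the counting interval of the reported ratio or, for counts of bins and windows, within 1.5 times the reported count. A further 47 moved, and 5 whose interval leaves out 1 changed direction. Lists whose interval contains 1 also passed 1. Without GC adjustment, starts of mesendoderm, cardiac and neural genes came to 1.19, 1.12 and 1.13, and over the own chromosome those of pluripotency and Hox genes to 0.980 and 0.991. The ratio at gene starts was under 1 in every alternative run except without GC adjustment. The depth of EB IgG, 2.89 reads per kb, limits what single starts can show.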
